A study of Homo sapiens with 14 samples.

Results

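EZH2, SUZ12 and EED encode the 3 core subunits of Polycomb repressive complex 2 (PRC2), and EZH2 is also the gene named in the guides of 6 libraries of this series. Within these genes the sites were taken by position alone, as every listed adenosine-to-guanosine (A-to-G) site inside the hg19 spans chr7:148504464-148581441 for EZH2, chr17:30264037-30328064 for SUZ12 and chr11:85955806-85989785 for EED. The choice of the genes was made with earlier results of these data known. The spans held 18 distinct sites of 26172 in the whole series, of which 17 lay in EZH2, 1 in SUZ12 and 0 in EED. These sites made up 41 of 53390 list entries, where an entry is 1 site in 1 library.

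The cells were HEK293T, a readily transfected line derived from human embryonic kidney, and each of the 14 libraries of polyadenylated RNA came from cells with 1 of 4 RNA base editors. Such editors convert adenosine in RNA to inosine, which is read as guanosine. The 7 groups of 2 libraries were REPAIRv2 with the NT guide, REPAIRv2 with EZH2_A22, REPAIR.t1 with NT, REPAIR.t1 with EZH2_A22, dCas13d-ADAR with NT, dCas13d-ADAR with EZH2, and DECOR with MALAT1. REPAIRv2 is a catalytically inactive Cas13 protein fused to the deaminase domain of human ADAR. The labels give no more than the names of the other editors, do not spell out NT or A22, and do not state how the editors were delivered or where in EZH2 the guides bind. Nor do they say whether EZH2_A22 and EZH2 name the same guide; "EZH2 guides" here covers both, so a guide effect that differs between dCas13d-ADAR and the REPAIR editors may lie in the guide or the editor. All groups carried an editor, so no list shows the sites that would be there without one. DECOR had only MALAT1 guide libraries, read for 62 and 160 cycles where the others were read for 25 and 97, so for DECOR read length, guide and editor cannot be told apart.

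PRC2 places methyl groups on a lysine of the histone H3 tail, a mark of silenced genes. EZH2 is the catalytic subunit and carries the SET domain, EED binds the methylated histone tail and stimulates EZH2, and SUZ12 is the scaffold that holds the complex together. EZH2 is abundant in dividing cells. Its RNA is used here as a target for guides, so these lists measure base changes in transcripts and say nothing of the protein or the mark.

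Each list gave a position and an A-to-G rate, a fraction from 0 to 1 that is called the level here. The lists hold no read counts, so the depth behind each level is unknown and no counting error can be given. An absent site can be unedited, under the calling threshold, or thinly covered. REPAIRv2 lists had 46 to 101 sites, REPAIR.t1 lists 4356 to 4784, dCas13d-ADAR lists 5730 to 5834 and DECOR lists 5516 to 5855. The lowest level in any list was 0.0597. RNA abundance was not measured, so fewer transcripts and less editing of each cannot be told apart. No sequence or exon annotation of hg19 was used, so the bases around the sites and their exon or intron were not analysed here. The spans lie on the minus strand for EZH2 and the plus strand for SUZ12 and EED, per RefSeq (GRCh38.p14), and sites are placed below by their distance from the 3′ end of the span.

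EZH2 was the only one of the 3 genes with recurrent sites. Its 17 sites gave 40 entries, and 8 of them were in 2 or more libraries. The other 9 were in 1 library each. All 17 lay between 274 and 39204 bases from the 3′ end of a span of 76978 bases, 12 of them within 10000 bases and 16 within 25000 bases. The 37773 bases up to the 5′ end held no listed site in any library. Outside the span, the nearest listed sites were 14582 bases beyond its 3′ end and 123811 bases beyond its 5′ end.

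SUZ12 had 1 site, position 30327745 on chromosome 17, which lay 319 bases from the 3′ end of its span of 64028 bases. It was listed once, at a level of 0.357 in REPAIR.t1 EZH2_A22 replicate 2, and in none of the other 13 libraries. EED had 0 sites in all 14 lists over a span of 33980 bases, and the nearest listed sites were 58709 bases above its upper end and 286486 bases below its lower end. Within 5000 bases of any of the 3 spans no further site was listed.

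**Figure D1:**
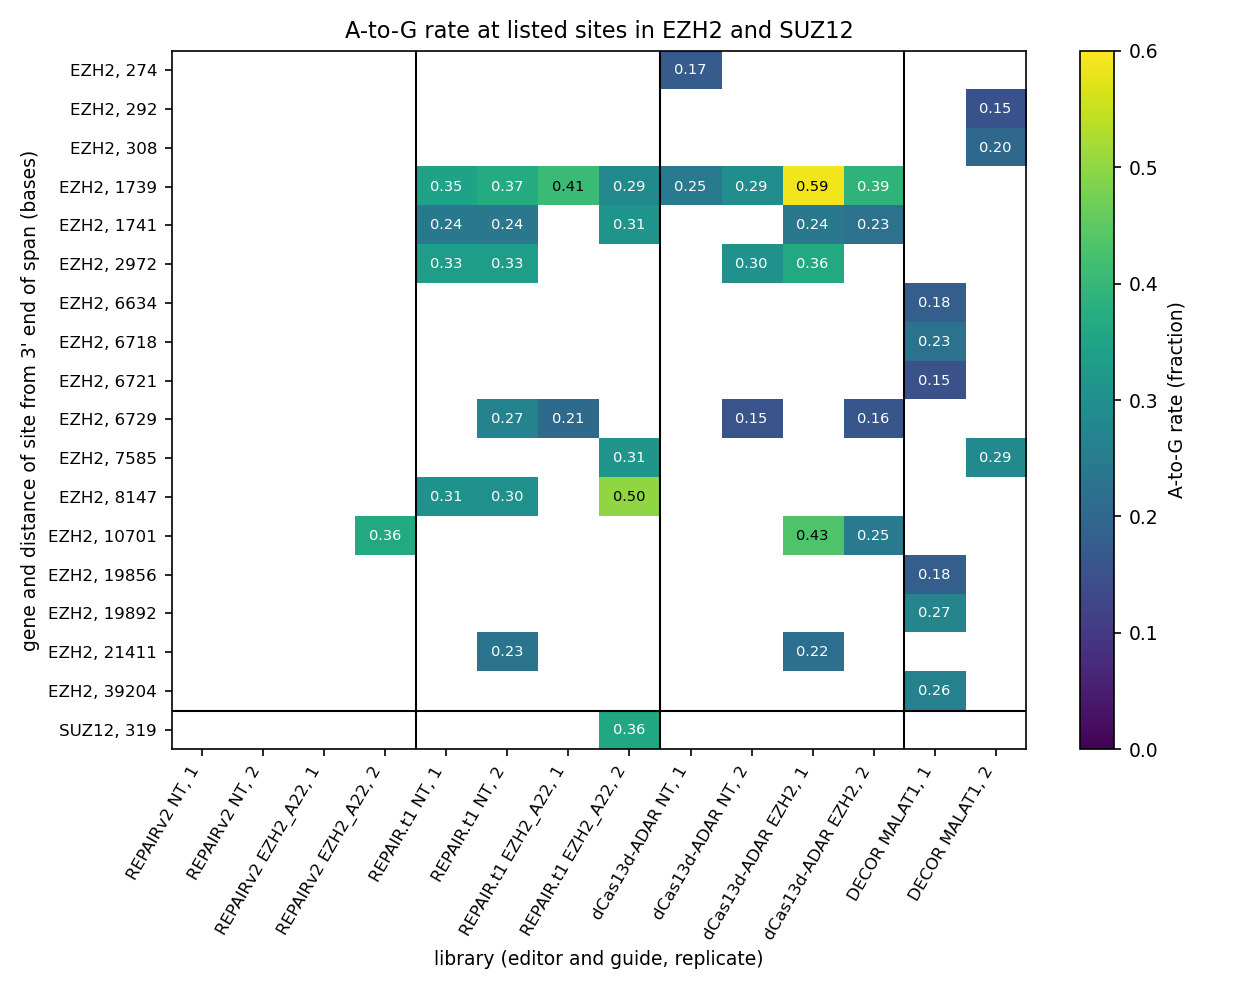
Level (A-to-G rate, a fraction, by colour and printed value) of each listed site in EZH2 and SUZ12 (rows, by distance in bases from the 3′ end of the span) in each of the 14 libraries (columns). White marks a site that the list does not hold; only the row at 1739 bases is filled in all 8 REPAIR.t1 and dCas13d-ADAR libraries, and no DECOR site is filled in both DECOR columns.

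The EZH2 guides did list sites in EZH2 that NT libraries did not. Against all sites, their share was smaller where 1 library was enough and where both EZH2_A22 libraries of REPAIR.t1 were required. It was larger where 3 EZH2 libraries, or both EZH2 libraries of dCas13d-ADAR, were required. The share listed with NT alone was also larger in REPAIR.t1 where both NT libraries were required, 14.3% against 3.17%. Over the 12 REPAIRv2, REPAIR.t1 and dCas13d-ADAR libraries EZH2 had 9 distinct sites, of which 6 were listed with both kinds of guide, 2 with an EZH2 guide alone and 1 with NT alone. The 2 EZH2-guide sites were 22.2% of the 9, where 29.5% of the 17217 sites of these 12 libraries were listed with EZH2 guides alone. The NT site was 11.1% of the 9, against 27.6% of all sites. When 3 or more EZH2 libraries had to list a site that no NT library listed, 1 of the 9 EZH2 sites was left (11.1%), against 0.587% of all sites. In both EZH2 libraries and no NT library of dCas13d-ADAR there were 2 of 7 (28.6%), against 3.51%, and in both EZH2_A22 libraries and no NT library of REPAIR.t1 0 of 7, against 3.81%. With 7 or 9 sites, none of these shares was tested. The cut-off of 3 EZH2 libraries was not part of the plan, and the same cut-off for NT libraries was not counted over all sites. EZH2 sites were also more often in all 8 libraries of REPAIR.t1 and dCas13d-ADAR, whatever the guide (11.1% against 3.54%). The 1 site that met the cut-off of 3 EZH2 libraries was also among the 2 of dCas13d-ADAR, so these shares are not independent. In SUZ12 the only site was of the first kind. These numbers rest on few libraries. Without REPAIR.t1 EZH2_A22 replicate 2 they were 1 site with EZH2 guides alone and 2 with NT alone in EZH2, and SUZ12 had none. Without dCas13d-ADAR EZH2 replicate 1 there were 3 NT sites, without dCas13d-ADAR NT replicate 1 there were 0, and without REPAIR.t1 NT replicate 2 there were 3 EZH2-guide sites.

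The EZH2 site found most often with EZH2 guides and never with NT was position 148515165 on chromosome 7, 10701 bases from the 3′ end. Its level was 0.364 in REPAIRv2 EZH2_A22 replicate 2, 0.435 in dCas13d-ADAR EZH2 replicate 1 and 0.250 in dCas13d-ADAR EZH2 replicate 2. It was in no NT library and in no REPAIR.t1 library of either guide. It was also the only site of the 3 genes that any REPAIRv2 library listed, and its level there exceeded 80.2% of that list of 101 sites. It was 1 of 9 EZH2 sites (11.1%) with such a pattern. Of the 17217 sites of the 12 REPAIRv2, REPAIR.t1 and dCas13d-ADAR libraries, 101 (0.587%) were in 3 or more EZH2 libraries with no NT library listing them, and 100 of these lay outside the 3 genes. The position was singled out after its values were seen.

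The other site listed with an EZH2 guide alone was position 148512049, 7585 bases from the 3′ end. It was at 0.312 in REPAIR.t1 EZH2_A22 replicate 2, and also at 0.286 in DECOR MALAT1 replicate 2, whose guide is not to EZH2. The NT site was position 148504738, 274 bases from the 3′ end, at 0.174 in dCas13d-ADAR NT replicate 1. Its level was low for that library, above 16.4% of the list.

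Within 1 editor the requirement of both libraries of a guide gave different sites. In dCas13d-ADAR, the 2 of 7 EZH2 sites in both EZH2 libraries and no NT library were positions 148506205 and 148515165, while 0 of 7 were in both NT libraries and no EZH2 library, against 3.52% of all sites. In REPAIR.t1, 1 of 7 was in both NT libraries and no EZH2_A22 library, position 148507436, against 3.17%. Position 148506205 was listed by both NT libraries of REPAIR.t1, so it does not stand for EZH2 guides over the editors.

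No difference by guide was detected in the number of EZH2 sites per library. REPAIRv2 listed 0 and 0 sites with NT and 0 and 1 with EZH2_A22. REPAIR.t1 listed 4 and 6 with NT and 2 and 4 with EZH2_A22. dCas13d-ADAR listed 2 and 3 with NT and 5 and 4 with EZH2. In dCas13d-ADAR both EZH2 libraries had more sites than both NT libraries, while in REPAIR.t1 the groups met at 4 sites and the mean was lower with EZH2_A22. The mean difference of EZH2 minus NT libraries was 0.5 sites with REPAIRv2, -2 with REPAIR.t1 and 2 with dCas13d-ADAR, and 0.167 over the 3 editors (two-sided exact permutation test within editors, p = 1; 216 arrangements, smallest possible p = 0.0556). The difference of 4 sites between the guide effects of dCas13d-ADAR and REPAIR.t1 had p = 0.111 in an exact permutation test, the smallest that its 36 arrangements allow. Since the guide is labelled EZH2 with the one editor and EZH2_A22 with the other, editor and guide cannot be told apart in this difference. The difference over editors turned to -0.167 without REPAIR.t1 NT replicate 1 or without REPAIR.t1 EZH2_A22 replicate 2.

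**Figure D2:**
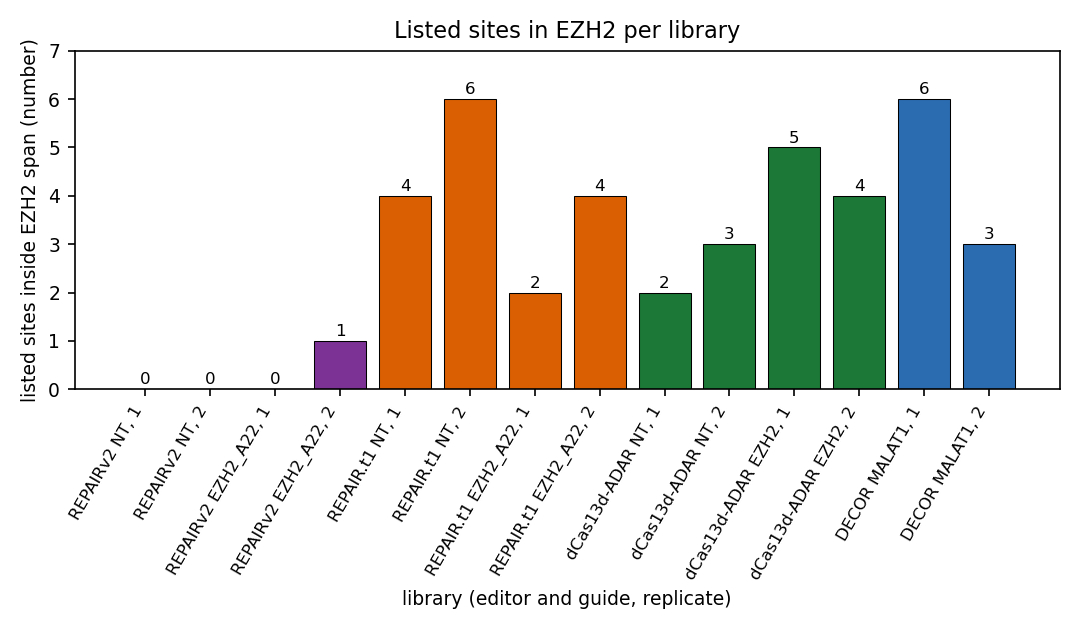
Number of listed sites inside the EZH2 span in each of the 14 libraries (1 bar per library, coloured by editor). REPAIRv2 libraries list 0 or 1 site and the libraries of the other editors 2 to 6.

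The numbers of EZH2 sites in REPAIR.t1 and dCas13d-ADAR libraries overlapped, at 2 to 6 and 2 to 5. REPAIR.t1 listed 4 ± 1.63 sites per library (SD, n = 4) and dCas13d-ADAR 3.5 ± 1.29 (n = 4). The difference of dCas13d-ADAR minus REPAIR.t1, -0.5 sites, did not pass a two-sided exact permutation test of 4 libraries against 4 (p = 0.8, smallest possible p = 0.0857). It turned to 0.167 without REPAIR.t1 NT replicate 2, and was -2.5 with NT libraries alone and 1.5 with EZH2 libraries alone. Per 1000 sites of the list, EZH2 held 0.872 ± 0.392 for REPAIR.t1, 0.604 ± 0.219 for dCas13d-ADAR (SD, n = 4 each) and 0.800 ± 0.407 for DECOR (n = 2). The 1 REPAIRv2 site among 101 was 9.90 per 1000, a share that rests on that entry. The same tests for SUZ12 and EED had too few sites to be informative (exact permutation p = 1 each).

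The 9 EZH2 sites of REPAIR.t1 and dCas13d-ADAR, in a span of 76978 bases, were more than most windows of that length held. Of 39275 adjoining windows of this length along the chromosomes, 8.88% held any site of these editors, with a median of 3 sites among those that did. Windows with at least 9 sites were 16.9% of the 3488 that held any. The windows include stretches without expressed genes, and no test was made.

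Position 148506203, 1739 bases from the 3′ end, was the most widely listed site of the 3 genes. It was in all 8 REPAIR.t1 and dCas13d-ADAR libraries, as were 3.54% of the sites of these editors, and in no REPAIRv2 or DECOR library. With REPAIR.t1 its level was 0.346 and 0.368 in the NT libraries and 0.409 and 0.286 in the EZH2_A22 libraries. The 2 guides overlapped, since one EZH2_A22 library was above both NT libraries and the other below both. With dCas13d-ADAR its level was 0.250 and 0.294 in the NT libraries and 0.588 and 0.391 in the EZH2 libraries. Here both EZH2 libraries were above both NT libraries. The value of 0.588 was the highest of all entries in the 3 genes and exceeded 98.1% of the sites in its list.

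**Figure D3:**
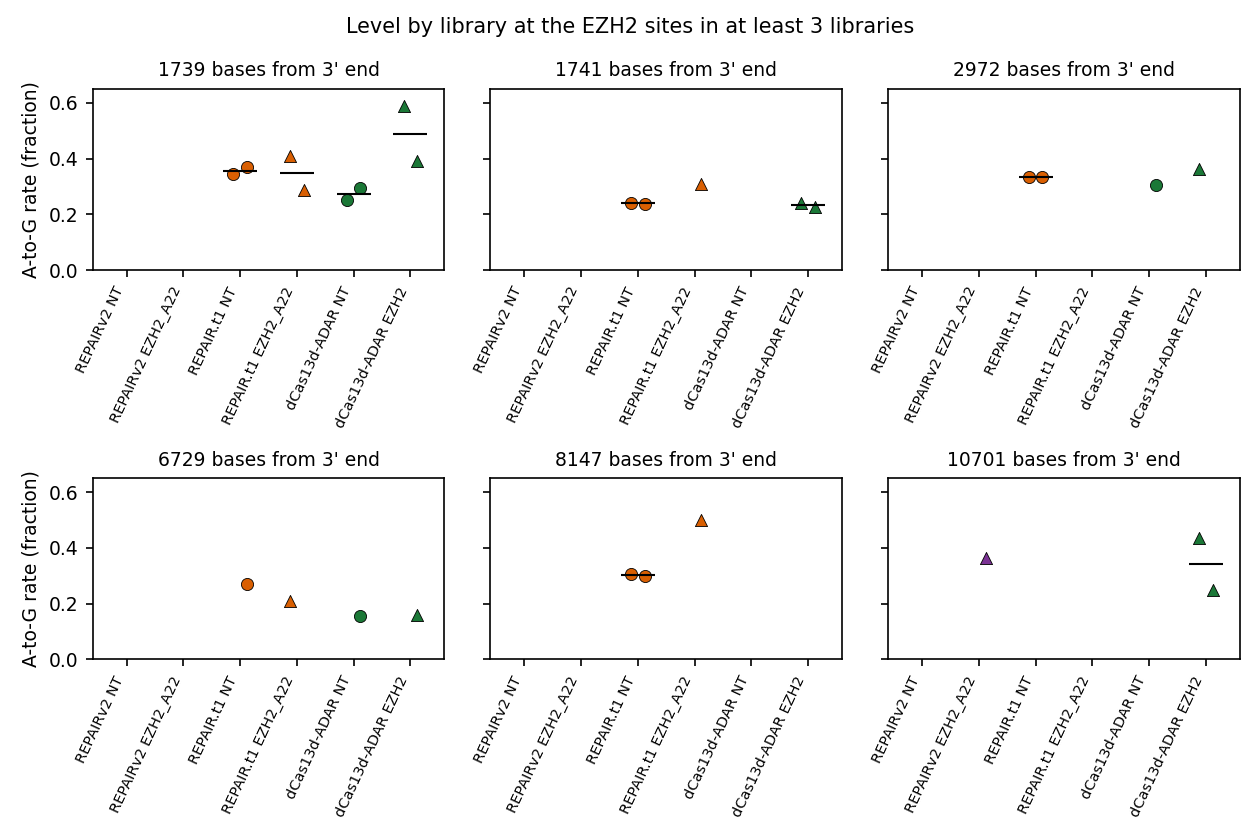
Level (A-to-G rate, a fraction) at the 6 EZH2 sites that are in at least 3 libraries, 1 panel per site by its distance in bases from the 3′ end, with 1 point per library (replicate 1 to the left) and a line at the mean where both libraries of a group list the site. At 1739 bases the dCas13d-ADAR EZH2 points (0.588 and 0.391) lie above its NT points (0.250 and 0.294), while the REPAIR.t1 groups overlap.

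The difference at this site with dCas13d-ADAR did not pass the test across all sites. The mean level was 0.490 ± 0.139 with EZH2 and 0.272 ± 0.0312 with NT (SD, n = 2 each), a difference of 0.218. On the log2 odds scale the difference of EZH2 minus NT was 1.33 (SE 0.51, 95% interval 0.27 to 2.39) in limma's moderated test, with an unadjusted p of 0.0159 and an adjusted p of 0.848 (Benjamini-Hochberg over 1665 sites in all 4 libraries). Of these 1665 sites limma called 0 (0%; 87 at an unadjusted p below 0.05), 99.5% had a smaller difference in mean level than the EZH2 site, and 15.1% had both EZH2 libraries above both NT libraries. Without 1 of the 4 libraries the log2 odds difference was 0.77 to 1.90 and its adjusted p 0.824 to 0.924 in limma.

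With REPAIR.t1 no difference by guide was detected at the site. The mean level was 0.347 ± 0.0872 with EZH2_A22 and 0.357 ± 0.0157 with NT (SD, n = 2 each). The log2 odds difference was -0.08 (SE 0.48, 95% interval -1.05 to 0.90; limma adjusted p = 0.999 over 1053 sites), and turned to 0.31 without REPAIR.t1 EZH2_A22 replicate 2. Of the 1053 sites limma called 0 (0%; 61 at an unadjusted p below 0.05), and 17.4% had both EZH2_A22 libraries above both NT libraries, which the EZH2 site did not. The difference between the guide effects of dCas13d-ADAR and REPAIR.t1 at the site, in which editor and guide again cannot be told apart, was 1.41 log2 units of odds (SE 0.72, 95% interval -0.04 to 2.86). It did not pass in limma (unadjusted p = 0.0567, adjusted p = 0.785 over the 609 sites in all 8 libraries, of which 0, or 0%, were called and 41 had an unadjusted p below 0.05). This position was the only one of the 17 EZH2 sites in all 4 libraries of an editor, so no other member could enter these tests.

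**Figure D4:**
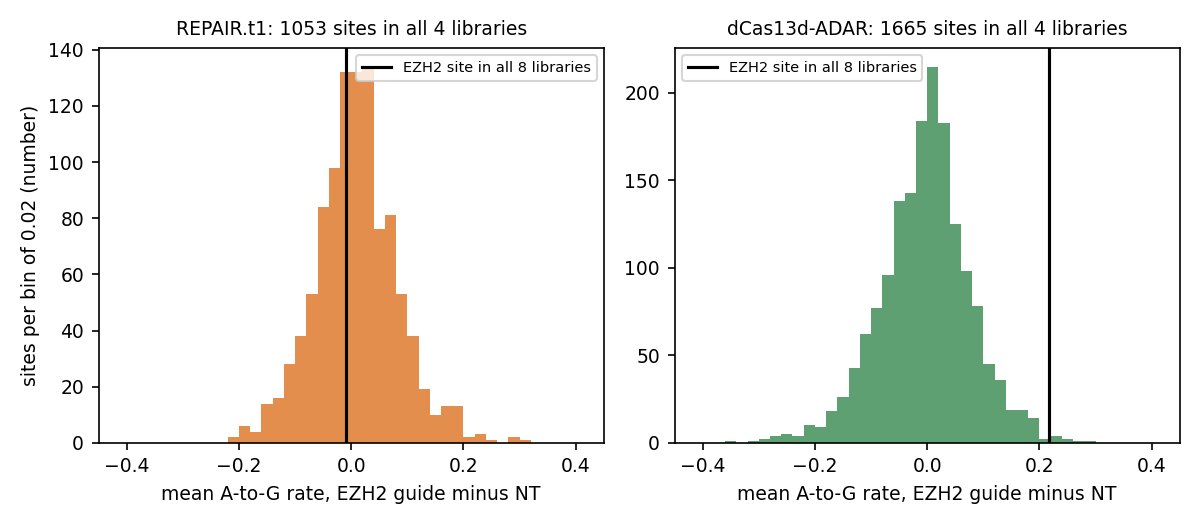
Number of sites (vertical axis) by difference in mean level, EZH2 guide minus NT (horizontal axis, bins of 0.02), over the 1053 REPAIR.t1 and 1665 dCas13d-ADAR sites in all 4 libraries of the editor. The black line marks the EZH2 site in all 8 libraries, which lies near the centre for REPAIR.t1 (-0.00989) and in the upper tail for dCas13d-ADAR (0.218).

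Between the 2 editors the level at position 148506203 did not differ detectably. It was 0.381 ± 0.150 with dCas13d-ADAR and 0.352 ± 0.0515 with REPAIR.t1 (SD, n = 4 each). The log2 odds difference of dCas13d-ADAR minus REPAIR.t1, with the guide as a covariate, was 0.14 (SE 0.37, 95% interval -0.60 to 0.89; limma adjusted p = 0.861), where 44 of 609 sites (7.22%) passed an adjusted p of 0.05. Of those 44, 40 were higher and 4 lower with dCas13d-ADAR, and the median difference over the 609 sites was 0.338. The difference at position 148506203 turned to -0.15 without REPAIR.t1 EZH2_A22 replicate 2 and to -0.22 without dCas13d-ADAR EZH2 replicate 1.

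A second site lay 2 bases away, at position 148506205. REPAIR.t1 listed it at 0.242 and 0.238 with NT and at 0.310 in EZH2_A22 replicate 2, and dCas13d-ADAR at 0.240 and 0.226 with EZH2 and in no NT library. In each of these 5 libraries but 1 its level was below that of its neighbour, the exception being REPAIR.t1 EZH2_A22 replicate 2, where it was 0.310 against 0.286. Position 148507436, 2972 bases from the 3′ end, was at 0.333 in both NT libraries of REPAIR.t1, at 0.304 in dCas13d-ADAR NT replicate 2 and at 0.364 in dCas13d-ADAR EZH2 replicate 1. It showed the least spread of the recurrent sites listed by more than 3 libraries, with 0.334 ± 0.0242 (SD over the 4 libraries that list it).

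Position 148512611, 8147 bases from the 3′ end, was listed by REPAIR.t1 alone. Its level was 0.308 and 0.3 with NT and 0.5 in EZH2_A22 replicate 2. When sites missing from 1 library were allowed, the log2 odds difference of EZH2_A22 minus NT, with REPAIR.t1 EZH2_A22 replicate 1 missing, was 1.17 (SE 0.32; limma unadjusted p = 0.0348, adjusted p = 0.843 over 2334 sites). Position 148506205 had a difference of 0.49 in the same fit (limma adjusted p = 0.849), with the same library missing. Neither passed. At both sites the EZH2_A22 group was 1 library, because the other did not list the site, so the SE holds no spread of that group and assumes that it varies like NT.

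The lowest median level among the sites in at least 3 libraries, 0.184, was at position 148511193, 6729 bases from the 3′ end. It was at 0.269 in REPAIR.t1 NT replicate 2, 0.208 in REPAIR.t1 EZH2_A22 replicate 1, 0.154 in dCas13d-ADAR NT replicate 2 and 0.160 in dCas13d-ADAR EZH2 replicate 2. The REPAIR.t1 values were the higher ones, but only 2 libraries of each editor listed the site. How many of all sites separate the editors in this way was not counted. Over the 609 sites in all 8 libraries the median log2 odds difference of dCas13d-ADAR minus REPAIR.t1 was 0.338, the other direction. Within dCas13d-ADAR the NT and EZH2 values were close. Position 148525875, 21411 bases from the 3′ end, was listed by 2 libraries, at 0.231 in REPAIR.t1 NT replicate 2 and at 0.219 in dCas13d-ADAR EZH2 replicate 1.

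The DECOR lists held mostly other positions of EZH2, and its 2 libraries had none in common. Replicate 1 listed 6 sites and replicate 2 listed 3, so 0 of 9 were in both, where 22.2% of all DECOR sites were. The sites of replicate 1 were positions 148511098 (0.182), 148511182 (0.226), 148511185 (0.148), 148524320 (0.182), 148524356 (0.273) and 148543668 (0.263), the last of which was the farthest from the 3′ end. Those of replicate 2 were 148504756 (0.150), 148504772 (0.2) and 148512049 (0.286). The last, listed also by REPAIR.t1, was 1 of 9 (11.1%) shared with another editor, where 3.75% of all DECOR sites were. Several lay close to a site of another editor without sharing it: position 148511185 was 8 bases from 148511193, and position 148504756 was 18 bases from 148504738.

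Levels in EZH2 lay above those of the lists with REPAIR.t1 and not with the other editors of more than 1 EZH2 entry. The median over entries was 0.309 for the 16 REPAIR.t1 entries in EZH2 against 0.258 for all entries of that editor, 0.250 for 14 dCas13d-ADAR entries against 0.267, and 0.2 for 9 DECOR entries against 0.208. Ranked within the list of its own library, the median of the 16 REPAIR.t1 entries in EZH2 exceeded 66.6% of the sites listed. For the dCas13d-ADAR and DECOR entries this share was 42.9% and 44.2%. By library, the EZH2 median with REPAIR.t1 was 0.321 and 0.285 with NT, where the lists had 0.25 and 0.25, and 0.309 and 0.311 with EZH2_A22, where they had 0.261 and 0.263, so it was above the list in 4 of 4 libraries. With dCas13d-ADAR it was above the list in 2 of 4 libraries, NT replicate 2 (0.294 against 0.269) and EZH2 replicate 1 (0.364 against 0.267), and with DECOR in 0 of 2. The REPAIR.t1 library medians rested on 2 to 6 entries each, and that of EZH2_A22 replicate 1 was the midpoint of 0.208 and 0.409. Other stretches of the genome were not counted in this way. The EZH2 entries ranged from 0.208 to 0.5 with REPAIR.t1, from 0.154 to 0.588 with dCas13d-ADAR and from 0.148 to 0.286 with DECOR. DECOR had no EZH2 entry above 0.286. Its levels were also lower over all entries, with a median of 0.208 against 0.258 for REPAIR.t1 and 0.267 for dCas13d-ADAR. The lower DECOR levels were thus not particular to EZH2. Entries of 1 library share their depth and several share a site, so these medians are a description and were not tested.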

How the data were processed

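RNA editing lists of 14 HEK293T libraries were used, 2 per group, grouped by their titles. For each library the authors deposited positions with an A-to-G rate, which is a fraction, per the headers of the files. The submitters' processing notes name cutadapt, STAR 2.6.1b and the builds hg19 and GRCh37; site caller, filters and thresholds: not given in the sources used here. Nothing says that replicates were separate cultures, so the p-values reflect only variation among these libraries, which may be technical.

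The members and tests were chosen with earlier results of these data known. Every site inside the 3 spans was taken and, being fewer than 40, every site is named. Site numbers were tested with two-sided exact permutations, 1 per gene and comparison (6 tests, unadjusted). A further unplanned and unadjusted exact permutation test compared the guide effects on EZH2 site numbers between dCas13d-ADAR and REPAIR.t1. Levels were tested as log2 odds (0.01 added to level and complement) in limma 3.58.1 across all sites in all libraries compared, with Benjamini-Hochberg adjustment. The guide-by-editor interaction and the windows were added after seeing the data, and the cut-off of 3 EZH2 libraries was not planned. The tests were tried on simulated data, with a common variance for all sites in limma and widely separated groups in the permutations. Those settings differ from the real lists, so they do not measure the power of the tests here. The lists hold no counts, so limma on the levels was used, as planned for that case. Further PRC2 genes were not analysed here. Differences between replicates 1 and 2 in NT and EZH2 groups correlated at 0.0486 (REPAIR.t1) and 0.0239 (dCas13d-ADAR), so little variation followed the replicate numbers. This does not show whether the libraries were paired. Calculations used Python 3.11.15, numpy 2.4.6, pandas 2.3.3 and R 4.3.3, and matplotlib 3.10.9 for figures.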

Additional observations from a re-analysis of the deposited data

How the results depend on the processing

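Alternatives were minimum levels, a wider span, numbers per 1000 sites, reproducible sites, other constants and scales, missing sites, each library left out, and the replicate block. The labels share replicate numbers but do not say what they mark; with the replicate block the EZH2 site-number difference between guides was 0.167 (exact permutation p = 1), and the limma log2 odds difference at position 148506203 was 1.33 for dCas13d-ADAR (adjusted p = 0.923) and -0.08 for REPAIR.t1 (adjusted p = 0.999), so it changed no limma call. The limma adjusted p of the members was at least 0.662 in every fit run. With all libraries, the main exact tests of EZH2 site numbers could not go below 0.0556 between guides or 0.0857 between editors. With the block the guide test could not go below 0.0625, so these tests say nothing about stability. Per 1000 sites of the list the smallest possible p was 0.0278 between guides and 0.0286 between editors. These exact permutation tests gave p = 0.639 and p = 0.286. Between editors, 0.0286 was also possible at a level of at least 0.2 and for sites in both libraries of a group. There the exact permutation p was 0.429 and 0.657. The number difference between guides turned to -0.333 when a site had to be in both libraries of its group, and ran from -0.167 to 0.5 with 1 library left out. The difference between editors was 1.5 with EZH2 libraries alone and -1.17 to 0.167 with 1 left out. Sites with EZH2 guides alone ranged from 1 to 3 in EZH2 and from 0 to 1 in SUZ12 with 1 left out, and those with NT alone from 0 to 3; at a level of at least 0.2 there were 0 with NT alone. At position 148506203 the log2 odds difference with 1 left out ran from -0.46 to 0.31 for the guides in REPAIR.t1 and from -0.22 to 0.35 between editors. Of all sites compared between editors, 17 passed in limma at a level of at least 0.2 in every library, against 44, and 10 to 42 with 1 left out. Where a group was left with 1 library, that library is assumed to vary like the others. The causes were not tested. Depth is unknown, which limits every statement about a missing site.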
